A study of Mus musculus with 12 samples.

Results

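The genes described here encode the chaperones and folding enzymes of the endoplasmic reticulum (ER), the sensors that set their levels, and the heat shock proteins of the cytosol and mitochondria. They were chosen by name as 35 of the 35303 gene symbols in the count table, and all 35 were present. By role, 22 act in or from the ER, 11 belong to the cytosolic heat shock response, and 2 form the mitochondrial chaperonin. All 35 were among the 17676 symbols tested, those with 2 or more counts summed over the 12 libraries, but Hspb1 passed with 0 to 7 reads per library and is given no fold change.

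RNA-seq compared 3 groups of myeloid-derived suppressor cells (MDSCs), which are immunosuppressive immature myeloid cells, with 4 biologically independent libraries each. The cells were grown for 3 days with IL-6 and GM-CSF from bone marrow of wild-type C57BL/6 mice (females, 6 to 10 weeks old) and enriched for CD11b and Gr1. The groups were unmodified cells (MDSC), cells whose surface carried blank PLGA nanoparticles attached by click chemistry between azide and DBCO groups (MDSC-NP-Blk), and cells carrying the same particles loaded with rapamycin (CITED). Rapamycin inhibits the kinase mTORC1, a regulator of protein synthesis. All 12 cultures then stayed for 24 hours with IL-6 (40 ng/ml), which the labels name as the treatment of every sample. The labels also give the CNS as tissue, whereas the methods describe cultured marrow cells. The sources do not state whether unmodified cells received the azide sugar, so in comparisons with MDSC the particle, the sugar, and the handling during conjugation cannot be told apart. CITED and MDSC-NP-Blk both carry particles and differ in the rapamycin load.

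The authors' counts summed to between 20604809 and 37855478 per library, and 3 counts, taken as the floor, were 7.92e-06% to 1.46e-05% of a library. This floor reflects counting error alone. Normalized counts below are raw counts scaled by library size and TMM factor to a library of mean size, and log2 fold changes are from edgeR's quasi-likelihood test with ± 1 standard error (SE). A gene is said to rise or fall where its p-value, adjusted over all 17676 genes by the Benjamini-Hochberg method, was below 0.05. The markers Itgam, Ly6g, Ly6c2, Ly6c1, S100a8, S100a9, Csf3r, and Csf1r were all above the floor in every group. They summed to 598397 to 684878 normalized counts for MDSC, 826980 to 876312 for MDSC-NP-Blk, and 643022 to 736541 for CITED. S100a8 and S100a9 made up most of each sum. Of the 8, 7 rose and 0 fell in MDSC-NP-Blk against MDSC (19.9% and 18.6% of all genes). In CITED against MDSC 4 rose and 2 fell (22.2% of all genes each way). The 6 T cell markers summed to 28.1 to 63.3, the 4 erythroid markers to 34.3 to 67.3, the 6 dendritic cell markers to 188 to 306, and the 4 stromal and endothelial markers to 1032 to 1803. The 5 mast cell and basophil markers summed to 7242 to 7802 for MDSC, 9410 to 11557 for MDSC-NP-Blk, and 5637 to 5788 for CITED. The share of mitochondrially encoded transcripts was 1.88% to 2.13% for MDSC, 1.5% to 1.68% for MDSC-NP-Blk, and 1.4% to 1.53% for CITED.

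Proteins that enter the secretory pathway fold inside the ER, where the Hsp70 chaperone BiP (Hspa5), lectin chaperones, and protein disulfide isomerases act on them. When unfolded proteins accumulate, the transmembrane sensors IRE1 (Ern1), PERK (Eif2ak3), and ATF6 signal to the nucleus, a program called the unfolded protein response, and many chaperone genes are known to respond through a promoter element called the ERSE. In the cytosol, heat shock factor 1 (Hsf1) controls the Hsp70 and Hsp90 genes through a heat shock element (HSE). Myeloid progenitors make large amounts of granule protein, which is folded in the ER.

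Exact matches of the ERSE or its compact form were found in some of the ER members and in no heat shock member, and they are shown before the expression values. Promoters were taken as 250 bases before to 50 bases after the start of the canonical transcript in GENCODE release M39 on GRCm39, and both strands were searched. The ERSE was searched as CCAAT, any 9 bases, and CCACG, and its compact form ERSE-II as ATTGG, any 1 base, and CCACG. The first part of the ERSE-II is that of the ERSE read on the other strand, and no match of one form overlapped a match of the other. The 8 ERSE matches among the members follow, each with 5 bases on either side, read 5′ to 3′ in the direction of the motif and with both half-sites in capitals.
Hspa5, chr2:34662032-34662060 (plus strand): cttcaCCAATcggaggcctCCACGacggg
Hsp90b1, chr10:86541497-86541525 (minus strand): caagcCCAATcgcaaggagCCACGcttcg
Hsp90b1, chr10:86541392-86541420 (plus strand): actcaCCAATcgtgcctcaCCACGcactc
Calr, chr8:85573699-85573727 (plus strand): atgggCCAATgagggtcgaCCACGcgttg
Canx, chr11:50216622-50216650 (minus strand): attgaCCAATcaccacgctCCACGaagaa
Pdia6, chr12:17316487-17316515 (plus strand): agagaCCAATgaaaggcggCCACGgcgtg
Dnajc3, chr14:119175234-119175262 (plus strand): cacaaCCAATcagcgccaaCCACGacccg
Creld2, chr15:88703718-88703746 (minus strand): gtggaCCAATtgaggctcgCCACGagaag
The ERSE was found in 27 of 21432 protein-coding promoters (0.126%), and 7 of these 27 belong to ER members. Hsp90b1 has a pair of matches on opposite strands, one beginning 142 and the other 37 bases before the start.

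The ERSE-II was found in 15 promoters (0.07%), of which 4 are those of ER members. Its 5 matches among the members are shown in the same way.
Dnajb11, chr16:22676597-22676617 (plus strand): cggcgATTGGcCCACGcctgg
Manf, chr9:106769233-106769253 (plus strand): tcctcATTGGtCCACGtgccc
Herpud1, chr8:95113000-95113020 (plus strand): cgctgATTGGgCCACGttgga
Hyou1, chr9:44290656-44290676 (minus strand): tgcggATTGGgCCACGtcacg
Hyou1, chr9:44290757-44290777 (minus strand): accccATTGGtCCACGtagaa
Hyou1 has 2 of them, and the match of Dnajb11 lies 13 to 23 bases after its start, inside the transcript. Either form was present in 11 of the 22 ER members against 42 of all 21432 promoters (0.196%), and in none of the 11 cytosolic and 2 mitochondrial members.

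An HSE, searched as TTC, GAA, and TTC with 2 bases between them, was found in 102 promoters (0.476%). The only members with a match were Hspd1 and Hspe1, the mitochondrial pair, which are transcribed in opposite directions from starts 108 bases apart and share the same run of half-sites.
Hspd1, chr1:55127213-55127240 (minus strand): gggccTTCcgGAAggTTCtaGAAcggac
The exact HSE was absent from the searched window of all 11 cytosolic members, which says only that these letters are not in this window. A match describes sequence and is not evidence of binding.

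**Figure D1:**
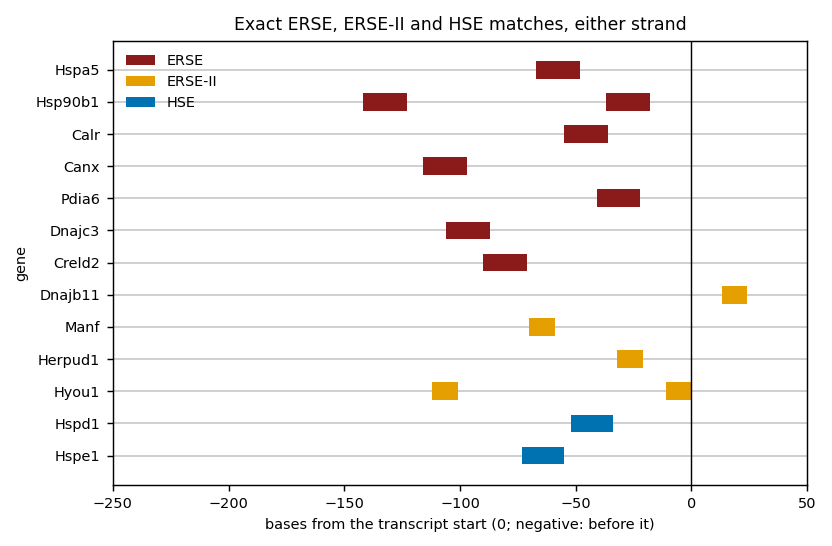
Positions of exact ERSE, ERSE-II, and HSE matches in bases from the start of the canonical transcript, for the 13 members with a match on either strand. Each bar is 1 match (the pairs in Hspd1 and Hspe1 overlap), and all but that of Dnajb11 lie before the start.

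Attachment of blank particles went with lower levels of most ER chaperone genes. Against MDSC, 16 of the 22 ER members fell in MDSC-NP-Blk and 2 rose, and their median log2 fold change was -0.28. The background was 18.6% of all tested genes called lower, 19.9% called higher, and 38.6% in either direction, with a median of -0.03. In 15 ER members all 4 MDSC-NP-Blk libraries lay below all 4 MDSC libraries (17.4% of all genes), and in 2 they lay above (18.1%). In bulk RNA, fewer cells of a type and less RNA per cell cannot be told apart.

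CITED showed the same counts against MDSC, with 16 ER members lower, 2 higher, and a median of -0.26. In that comparison 22.2% of all genes were called lower and 22.2% higher, 44.5% in total, and the median of all genes was -0.05. Groups did not overlap for 17 members that were lower and 1 that was higher in CITED, against 21.2% of all genes in each direction. With the length correction the falls of Atf6, Eif2ak3, and Sel1l did not pass, and Creld2 passed as lower. With library size alone Ern1, Pdia4, Creld2, and Edem1 passed as lower too. Both comparisons use the same MDSC libraries. The 22 genes together took 0.749% ± 0.00555 (SD, n = 4) of all counts of MDSC, 0.505% ± 0.0096 of those of MDSC-NP-Blk, and 0.473% ± 0.00449 of those of CITED. These are shares of raw counts, without the TMM factor. On the same scale the 10 cytosolic genes above the floor took 0.441% ± 0.00416, 0.441% ± 0.00407, and 0.407% ± 0.00395.

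Markers of a different kind moved with these values. The granule genes of promyelocytes (Mpo, Elane, Prtn3, Ctsg, and Ms4a3) fell in all 3 comparisons, 5 of 5 each time, and none was at the floor. Their summed normalized count was 66774 to 72669 for MDSC, 34279 to 36812 for MDSC-NP-Blk, and 8081 to 9021 for CITED. Between MDSC-NP-Blk and CITED, where the granule genes fell again, 4 ER members fell and 3 rose (11.4% and 10.5% of all genes). The median log2 fold change of the ER members there was 3.3e-05. The part of the granule genes in the fall of the ER genes was not tested.

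**Figure D2:**
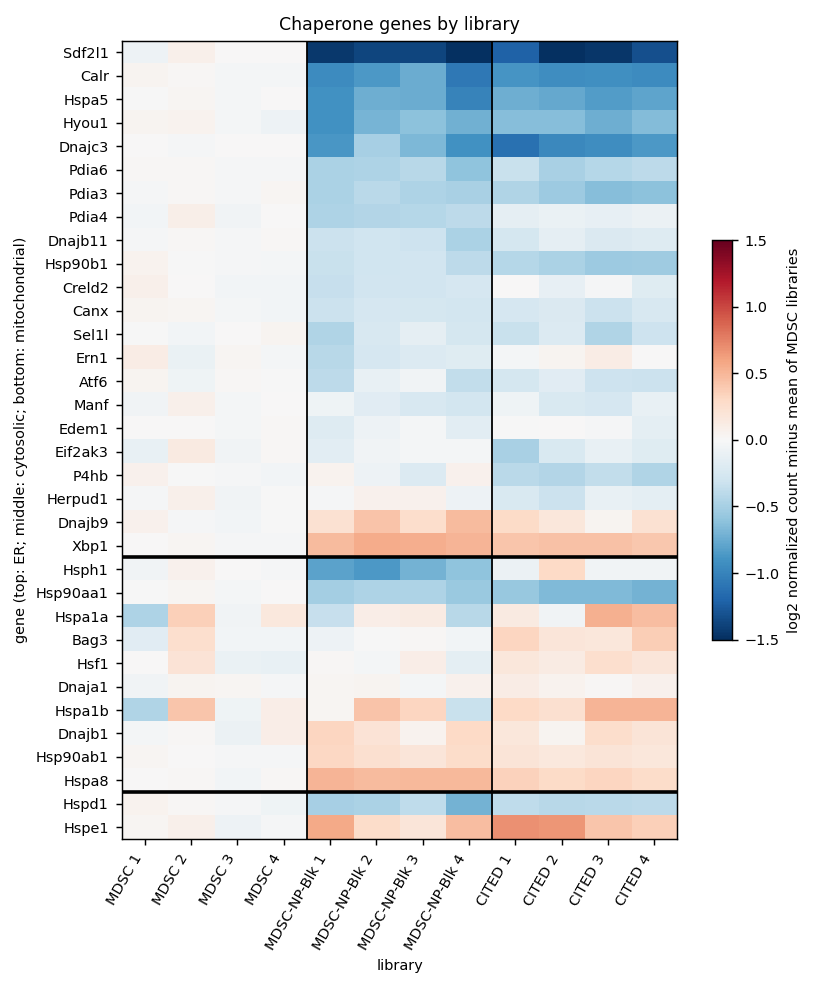
Normalized counts of 34 members (Hspb1 is left out) in each of the 12 libraries, as log2 differences from the mean log2 value of the 4 MDSC libraries. Blue is lower and red higher, and black lines separate ER, cytosolic, and mitochondrial genes and the 3 groups. Most ER rows are blue in all 8 particle-bearing libraries, whereas the cytosolic rows are mixed.

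The largest fall among the members was that of Sdf2l1 (chr16:16948002-16950252), which encodes a partner of BiP and its co-chaperones. Its normalized counts were 2051, 2285, 2170, and 2168 for MDSC, 793, 838, 833, and 644 for MDSC-NP-Blk, and 933, 657, 791, and 872 for CITED. The particle-bearing groups overlapped each other and both lay below all MDSC libraries. This was a 2.78-fold lower level in MDSC-NP-Blk (log2 fold change -1.48 ± 0.085, adjusted p = 5.3e-16) and a 2.66-fold lower level in CITED (log2 fold change -1.41 ± 0.0851, adjusted p = 5.7e-16). Sdf2l1 was the only member whose change also reached 1 on the log2 scale in size, which 2.86% of all genes did downward and 1.88% upward in MDSC-NP-Blk, and 6.7% and 3.28% in CITED. Its promoter holds neither exact form of the ERSE.

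Hspa5 (chr2:34661982-34668880) encodes BiP, the central chaperone of the ER, whose single ERSE begins 67 bases before the start. It had 16059, 16564, 15812, and 16278 normalized counts for MDSC, 8606, 9746, 9686, and 8070 for MDSC-NP-Blk, and 9726, 9468, 9021, and 9349 for CITED. All 8 particle-bearing libraries lay below every MDSC library. The log2 fold change was -0.84 ± 0.0519 in MDSC-NP-Blk (adjusted p = 3e-15) and -0.78 ± 0.0519 in CITED (adjusted p = 6.6e-15).

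Calr (chr8:85567946-85573667) encodes calreticulin, a lectin chaperone that holds glycoproteins while they fold. Its normalized counts were 19930, 19754, 19080, and 19038 for MDSC, 10090, 10717, 11577, and 9275 for MDSC-NP-Blk, and 10534, 10207, 10256, and 10148 for CITED. MDSC stood apart from both other groups, which overlapped (log2 fold change -0.90 ± 0.0513, adjusted p = 4.2e-16 in MDSC-NP-Blk, and log2 fold change -0.92 ± 0.0514, adjusted p = 7.8e-17 in CITED). Canx, which encodes its membrane-bound relative calnexin, fell less, by 0.28 ± 0.0449 in MDSC-NP-Blk and by 0.26 ± 0.0449 in CITED on the log2 scale.

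Among the members that act with BiP, Hyou1, Dnajc3, Dnajb11, and Manf fell in both comparisons. Hyou1, which exchanges the nucleotide of BiP and carries a pair of ERSE-II matches, had log2 fold changes of -0.73 ± 0.0556 in MDSC-NP-Blk and -0.67 ± 0.0557 in CITED, and MDSC stood above both other groups, which overlapped. Dnajc3, a J-domain co-chaperone of BiP, had -0.72 ± 0.0709 and -0.96 ± 0.0717. Dnajb11, a J-domain protein that hands unfolded proteins to BiP, had -0.35 ± 0.0562 and -0.20 ± 0.0562. Manf, an ER protein that binds BiP, had -0.19 ± 0.0578 and -0.16 ± 0.0579, and its call in CITED was lost without MDSC 2 (adjusted p = 0.075), CITED 2 (adjusted p = 0.07), or CITED 3 (adjusted p = 0.084). Not every partner of BiP did so, since Dnajb9 rose (below), and Sil1, an exchange factor (-0.10 ± 0.09 and -0.03 ± 0.0902), and Dnajc10, a J-domain reductase (0.00061 ± 0.0565 and -0.10 ± 0.0567), passed in neither.

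Of the protein disulfide isomerases, which make and rearrange disulfide bonds, Pdia6 and Pdia3 fell in both comparisons, Pdia4 in MDSC-NP-Blk, and P4hb in CITED (the latter 2 are described with the drug load). Pdia6 had a log2 fold change of -0.49 ± 0.0493 in MDSC-NP-Blk and -0.41 ± 0.0493 in CITED, and Pdia3, which works with calreticulin and calnexin, had -0.46 ± 0.0465 and -0.56 ± 0.0466. Hsp90b1, the Hsp90 of the ER, had -0.33 ± 0.0443 and -0.49 ± 0.0444. For these 3 genes the MDSC libraries stood above all 8 others.

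Genes of ER-associated degradation, which returns misfolded proteins to the cytosol, were less uniform. Sel1l, the adaptor of the Hrd1 ubiquitin ligase, fell in both groups (log2 fold change -0.27 ± 0.059 in MDSC-NP-Blk and -0.32 ± 0.0592 in CITED), and neither call held with a correction for transcript length (-0.11 and -0.091). Edem1, a lectin that marks glycoproteins for degradation, passed the test in neither (-0.11 ± 0.0483 and -0.038 ± 0.0483). In MDSC-NP-Blk it passed as lower with DESeq2 (adjusted p = 0.02), RLE normalization (0.043), the filterByExpr filter (0.046), and library size alone (5.2e-08). In CITED it passed as lower with library size alone (-0.31, adjusted p = 1e-06) and as higher with the length correction (0.17, adjusted p = 0.00065). Herpud1, a membrane protein of the same machinery, had 0.01 ± 0.0642 in MDSC-NP-Blk (adjusted p = 0.94) and fell in CITED (-0.20 ± 0.0648, adjusted p = 0.012), where the call was lost without CITED 2 (adjusted p = 0.058).

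Against this fall, Xbp1 (chr11:5470606-5483027) rose in both particle groups. It encodes the transcription factor whose mRNA is spliced by IRE1, and gene counts do not tell the spliced from the unspliced form. Its normalized counts were 11626, 11836, 11454, and 11418 for MDSC, 16066, 17019, 16932, and 16537 for MDSC-NP-Blk, and 15402, 15665, 15747, and 15379 for CITED, with no overlap between any of the 3 groups. The rise was 1.44-fold for MDSC-NP-Blk (log2 fold change 0.52 ± 0.0422, adjusted p = 2.3e-12) and 1.34-fold for CITED (log2 fold change 0.42 ± 0.0422, adjusted p = 1.6e-10). CITED was lower than MDSC-NP-Blk by 0.098 ± 0.0421 on the log2 scale, which did not pass the test (adjusted p = 0.099) but passed with DESeq2 (adjusted p = 0.0078) and with the length correction (adjusted p = 0.029). The 7 markers of B and plasma cells, which also use Xbp1, summed to 2047 to 2389 for MDSC, 2895 to 3186 for MDSC-NP-Blk, and 2456 to 2525 for CITED, with none at the floor. Sdc1 made up most of these sums, and the plasma cell gene Jchain had between 0 and 5.09 normalized counts in every library. Their part in the Xbp1 values was not tested.

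Dnajb9, a J-domain protein of the ER lumen that binds IRE1, was the other ER member to rise. It had 840, 794, 780, and 803 normalized counts for MDSC, 945, 1082, 965, and 1116 for MDSC-NP-Blk, and 978, 905, 825, and 942 for CITED. Groups did not overlap for MDSC-NP-Blk (log2 fold change 0.35 ± 0.0746, adjusted p = 0.0002), whereas 1 CITED library lay within the MDSC range (log2 fold change 0.18 ± 0.0752, adjusted p = 0.049). The call in CITED was lost on leaving out any of 7 libraries, with an adjusted p of 0.051 without MDSC 1, 0.09 without MDSC 2, 0.12 without MDSC 3, 0.086 without MDSC 4, 0.15 without CITED 1, 0.071 without CITED 2, and 0.12 without CITED 4. With normalization to library size alone the log2 fold change of Dnajb9 was 0.092 in MDSC-NP-Blk (adjusted p = 0.34) and -0.093 in CITED, and neither passed.

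Differences of the sensors were smaller than those of the main chaperones. Atf6, a membrane-bound transcription factor released by proteolysis, had 1614, 1497, 1584, and 1564 normalized counts for MDSC, 1196, 1453, 1512, and 1207 for MDSC-NP-Blk, and 1306, 1395, 1266, and 1251 for CITED. It fell in MDSC-NP-Blk, with overlap and a log2 fold change of -0.22 ± 0.0709, and in CITED, without overlap (-0.26 ± 0.0713). The first call was lost without MDSC-NP-Blk 1 (adjusted p = 0.057) or 4 (adjusted p = 0.061). With a correction for transcript length the 2 values were -0.017 and 0.028, and neither passed.

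Ern1, which encodes the kinase and RNase IRE1, had 1639, 1410, 1543, and 1484 normalized counts for MDSC, 1135, 1277, 1317, and 1337 for MDSC-NP-Blk, and 1491, 1561, 1634, and 1518 for CITED. The MDSC-NP-Blk libraries lay below both other groups, which overlapped each other. Ern1 fell in MDSC-NP-Blk (log2 fold change -0.26 ± 0.0658, adjusted p = 0.0014) and did not pass the test in CITED against MDSC (log2 fold change 0.029 ± 0.0656, adjusted p = 0.76). With the length correction the first value was -0.079 (adjusted p = 0.31) and the second passed as higher (0.30, adjusted p = 4.6e-05). With library size alone the second passed as lower (-0.24, adjusted p = 0.0026).

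Eif2ak3, which encodes PERK, a kinase that slows translation, had 1010, 1194, 1053, and 1106 normalized counts for MDSC, 972, 1052, 1063, and 1068 for MDSC-NP-Blk, and 778, 927, 1005, and 962 for CITED. It passed the test only in CITED against MDSC (log2 fold change -0.25 ± 0.0769, adjusted p = 0.0082), in which the lowest library, CITED 1, decided the call (adjusted p = 0.058 without it). The length correction gave -0.13 (adjusted p = 0.13).

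ER members with and without an ERSE or ERSE-II were set side by side. Of the 11 with a match, 10 fell and 0 rose in MDSC-NP-Blk, with a median log2 fold change of -0.35, and 10 fell and 0 rose in CITED (median -0.41). Of the 11 without, 6 fell and 2 rose in each comparison, with medians of -0.22 and -0.25. Over all genes, 18.6% fell and 19.9% rose in MDSC-NP-Blk, and 22.2% went each way in CITED. The sets differ in role as well, since Xbp1, the sensors Atf6, Ern1, and Eif2ak3, and also Edem1 and Sel1l lack a match. The spread within each set was wide, since Sdf2l1 has no match, whereas Herpud1 has one and had log2 fold changes of 0.01 ± 0.0642 and -0.20 ± 0.0648. This is a description with no test.

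**Figure D3:**
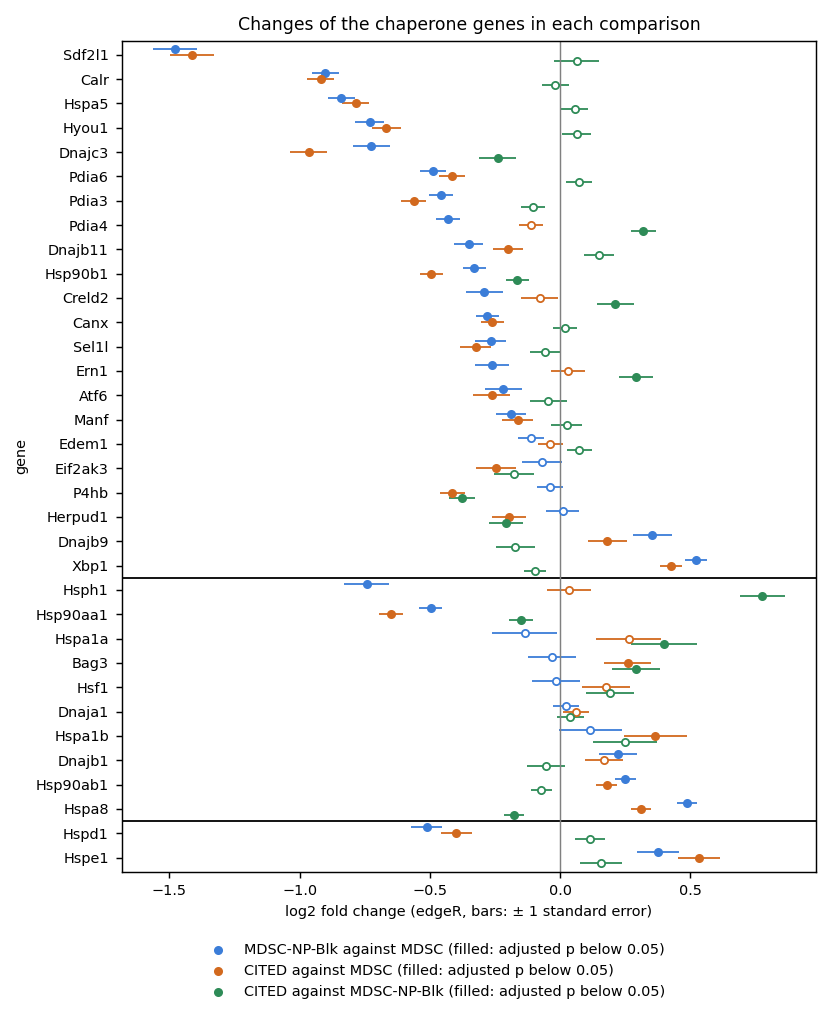
Log2 fold changes (x axis) of 34 members in the 3 comparisons, with bars of ± 1 SE from edgeR. Filled points passed an adjusted p of 0.05 and open points did not. Black lines separate ER, cytosolic, and mitochondrial genes, and Sdf2l1 at -1.48 and -1.41 lies farthest from 0.

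Cytosolic heat shock genes showed no common direction. In MDSC-NP-Blk against MDSC, 3 of 11 rose, 2 fell, and 6 did not pass the test (19.9% of all genes rose and 18.6% fell), and groups did not overlap for 2 that were higher and 2 that were lower. In CITED against MDSC, 4 rose and 1 fell (22.2% of all genes in each direction), and groups did not overlap for 2 and 1. These counts depended on the processing. With library size alone 1 rose and 6 fell in MDSC-NP-Blk and 0 rose and 4 fell in CITED, and with the length correction 4 rose and 2 fell in MDSC-NP-Blk and 7 rose and 1 fell in CITED. For the 10 genes above the floor, the median was 0.0031 for MDSC-NP-Blk and 0.18 for CITED on the log2 fold change scale. The median of the ER members minus that of the cytosolic members was -0.29 in MDSC-NP-Blk and -0.44 in CITED, and no test was made between the lists. Each library's mean log2 difference from MDSC over the 22 ER genes was -0.40 to -0.30 for MDSC-NP-Blk and -0.37 to -0.34 for CITED, whereas over the 10 cytosolic genes it was -0.098 to 0.013 and 0.066 to 0.16. MDSC libraries themselves spread from -0.12 to 0.14 for the cytosolic genes and from -0.020 to 0.019 for the ER genes.

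Hspa8 (chr9:40711630-40731039) encodes the constitutive Hsp70 of the cytosol and had the highest level per kilobase of canonical transcript among the members in every group, with a mean of 16345 normalized counts per kilobase in MDSC. Its normalized counts were 39197, 39742, 38057, and 39528 for MDSC, 55614, 54210, 54805, and 54657 for MDSC-NP-Blk, and 49815, 47935, 49031, and 47452 for CITED. No library of one group overlapped another group, and CITED lay between MDSC and MDSC-NP-Blk. It rose in MDSC-NP-Blk (log2 fold change 0.49 ± 0.0384, adjusted p = 1.4e-12) and in CITED (log2 fold change 0.31 ± 0.0384, adjusted p = 1.8e-08). With library size alone the rise in CITED was 0.037 and did not pass (adjusted p = 0.41). Of its 31-base words, 77.2% also occur in transcripts of other genes, so part of its reads could have been assigned elsewhere.

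The Hsp90 genes of the cytosol moved in opposite directions. Hsp90aa1 (chr12:110656842-110669166), the inducible form, had 11574, 11948, 11435, and 11712 normalized counts for MDSC, 8178, 8463, 8480, and 7935 for MDSC-NP-Blk, and 7857, 7397, 7398, and 7134 for CITED. It fell stepwise without overlap between any groups (log2 fold change -0.50 ± 0.0456, adjusted p = 4.6e-11 in MDSC-NP-Blk, and log2 fold change -0.65 ± 0.0457, adjusted p = 3.7e-14 in CITED). It shares 58.4% of its 31-base words with other transcripts.

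Hsp90ab1, the constitutive form, had 36987, 36210, 35710, and 35875 normalized counts for MDSC, 44805, 42619, 41142, and 43679 for MDSC-NP-Blk, and 41452, 40379, 41306, and 40776 for CITED. Both particle groups lay above MDSC (log2 fold change 0.25 ± 0.0398, adjusted p = 3.1e-06 in MDSC-NP-Blk, and log2 fold change 0.18 ± 0.0398, adjusted p = 0.00029 in CITED). This direction depended on the scaling, since with library size alone the values were -0.012 and -0.10. The TMM factors were 1.12 to 1.15 in MDSC and 0.921 to 0.947 in the other groups, and scaling to library size alone moved the median of all genes by -0.26 in MDSC-NP-Blk and by -0.27 in CITED. Under it 21.4% of the calls in MDSC-NP-Blk and 25.7% of those in CITED were higher, against 51.7% and 50% with TMM.

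Hsph1 (chr5:149537636-149560156) encodes Hsp110, which exchanges the nucleotide of cytosolic Hsp70. It had 788, 855, 822, and 807 normalized counts for MDSC, 471, 452, 500, and 537 for MDSC-NP-Blk, and 770, 1005, 787, and 791 for CITED. MDSC-NP-Blk lay below every library of both other groups, and CITED 2 stood above the rest. Hsph1 fell 1.67-fold in MDSC-NP-Blk (log2 fold change -0.74 ± 0.0852, adjusted p = 6.7e-09), and CITED against MDSC did not pass the test (log2 fold change 0.035 ± 0.0831, adjusted p = 0.78). The latter passed as higher with the length correction (0.26, adjusted p = 0.0091) and as lower with library size alone (-0.24, adjusted p = 0.018).

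Hsf1, the transcription factor of the heat shock response, had 417, 478, 387, and 384 normalized counts for MDSC, 421, 408, 443, and 376 for MDSC-NP-Blk, and 465, 451, 494, and 472 for CITED. It passed the test in no comparison. Against MDSC, its log2 fold change in MDSC-NP-Blk was -0.016 ± 0.091 and that in CITED was 0.18 ± 0.0908 (adjusted p = 0.12), and the latter passed with the length correction (0.33, adjusted p = 0.0022).

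The inducible Hsp70 genes Hspa1a and Hspa1b lie next to each other on chromosome 17 and share 65.4% and 68% of their 31-base words with other transcripts, mostly each other, so the split of reads between them is uncertain. Hspa1a had 1113, 1956, 1472, and 1704 normalized counts for MDSC, 1202, 1633, 1668, and 1149 for MDSC-NP-Blk, and 1680, 1468, 2213, and 2109 for CITED. Hspa1b had 1195, 2174, 1557, and 1739 for MDSC, 1668, 2191, 2037, and 1288 for MDSC-NP-Blk, and 2000, 1929, 2314, and 2320 for CITED. Libraries of one group differed more here than for any other member above the floor, and MDSC 1 was the lowest MDSC library and MDSC 2 the highest for both genes. Hspa1b rose in CITED against MDSC (log2 fold change 0.36 ± 0.121, adjusted p = 0.013), a call lost without MDSC 1 (adjusted p = 0.097) and with DESeq2 (adjusted p = 0.13). It was also lost with library size alone, where the value was 0.092 (adjusted p = 0.56).

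Bag3, a co-chaperone that links Hsp70 to autophagy, had 400, 538, 440, and 440 normalized counts for MDSC, 427, 451, 457, and 439 for MDSC-NP-Blk, and 567, 511, 509, and 586 for CITED. It rose in CITED against MDSC (log2 fold change 0.26 ± 0.0911, adjusted p = 0.019) with overlap through MDSC 2, and the call was lost without MDSC 1 (adjusted p = 0.1), MDSC 3 (adjusted p = 0.05), CITED 1 (adjusted p = 0.053), or CITED 4 (adjusted p = 0.078). With library size alone the value was -0.014.

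Dnajb1, a J-domain partner of Hsp70 that heat induces, had 978, 1012, 936, and 1068 normalized counts for MDSC, 1243, 1150, 1038, and 1232 for MDSC-NP-Blk, and 1118, 1023, 1201, and 1140 for CITED. It rose in MDSC-NP-Blk with overlap (log2 fold change 0.22 ± 0.0724, adjusted p = 0.013), a call lost without MDSC 3 (adjusted p = 0.059) or MDSC-NP-Blk 4 (adjusted p = 0.051), and library size alone gave -0.04. Dnaja1, the constitutive J-domain partner, passed in no comparison, with log2 fold changes of 0.022 ± 0.0503 and 0.062 ± 0.0504 against MDSC, but passed in both directions under other settings. It was lower with library size alone (-0.24, adjusted p = 0.00015, and -0.21, adjusted p = 0.00058) and higher with the length correction (0.15, adjusted p = 0.016, and 0.25, adjusted p = 5.6e-05). Hspb1, a small heat shock protein, had no reads in 9 of the 12 libraries and at most 7 in any, so its level was at or near the floor.

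**Figure D4:**
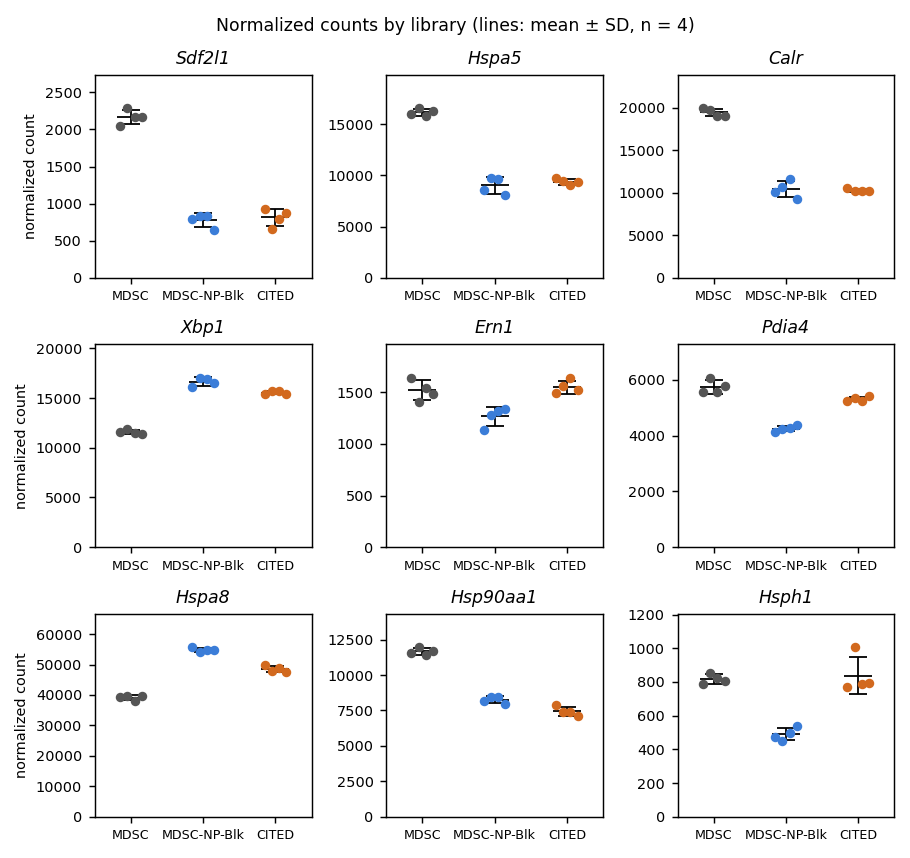
Normalized counts of 9 members in every library (points, 4 per group), with the mean and SD of each group as black lines and the y axes starting at 0. Sdf2l1, Hspa5, and Calr are lower and Xbp1 higher in both particle groups, Hspa8 and Hsp90aa1 differ in direction, and Ern1, Pdia4, and Hsph1 are lowest in MDSC-NP-Blk.

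The mitochondrial chaperonin genes Hspd1 (chr1:55116989-55171038) and Hspe1 (chr1:55127260-55130476) encode the barrel Hsp60 and its lid Hsp10. They overlap on opposite strands, and whether the counting used the strand is not given in the sources used here. Hspd1 had 3528, 3451, 3359, and 3261 normalized counts for MDSC, 2398, 2442, 2618, and 2072 for MDSC-NP-Blk, and 2620, 2542, 2572, and 2586 for CITED. Hspe1 had 1097, 1134, 1018, and 1063 for MDSC, 1599, 1301, 1217, and 1488 for MDSC-NP-Blk, and 1735, 1703, 1436, and 1376 for CITED. Although they share a promoter region, Hspd1 fell (-0.51 ± 0.0582 in MDSC-NP-Blk and -0.40 ± 0.0582 in CITED) and Hspe1 rose (0.38 ± 0.0805 and 0.53 ± 0.0805), and in each case both particle groups lay outside the MDSC range.

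Limits of the Hspe1 value stand beside it. The canonical transcript of Hspe1 has 774 bases, the shortest of the members, and that of Hspd1 has 2423. Within a library, expression relative to the mean over libraries was related to transcript length, with Spearman's rho of 0.22 to 0.35 for MDSC, -0.42 to 0.092 for MDSC-NP-Blk, and -0.34 to -0.19 for CITED across 10542 genes, which are not independent replicates. With the length correction the rise of Hspe1 in MDSC-NP-Blk was 0.088 (adjusted p = 0.31). With library size alone it was 0.11 (adjusted p = 0.26). Hspd1 and Hspe1 share 57.3% and 48.1% of their 31-base words with other transcripts.

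The drug load itself was addressed by CITED against MDSC-NP-Blk. Of the 22 ER members, 3 rose, 4 fell, and 15 did not pass the test. Of the 11 cytosolic members, 3 rose and 2 fell, and neither mitochondrial member passed. The background was 10.5% of all genes higher, 11.4% lower, and 22% in either direction, and 0.651% and 2% where a log2 fold change of 1 or more in size was also asked, which no member reached. Groups did not overlap for 4 ER members in each direction and for 3 cytosolic members that were higher and 2 that were lower, against 10.4% of all genes higher and 10.8% lower. The median log2 fold change was 0.12 for the 10 cytosolic genes above the floor and 0 for all genes.

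Pdia4, a disulfide isomerase of the BiP complex, had 5553, 6065, 5543, and 5763 normalized counts for MDSC, 4145, 4238, 4253, and 4366 for MDSC-NP-Blk, and 5224, 5339, 5247, and 5402 for CITED. MDSC-NP-Blk was the lowest group and the 3 groups did not overlap. It fell in MDSC-NP-Blk against MDSC (-0.43 ± 0.0472), rose in CITED against MDSC-NP-Blk (log2 fold change 0.32 ± 0.0473, adjusted p = 2.4e-06), and did not pass in CITED against MDSC (log2 fold change -0.11 ± 0.047, adjusted p = 0.052). The last value passed with DESeq2 (adjusted p = 0.007), RLE normalization (adjusted p = 0.039), the filterByExpr filter (adjusted p = 0.024), the 8 libraries alone (adjusted p = 0.018), and library size alone (adjusted p = 1.2e-08).

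Ern1, whose counts are given above, rose in CITED against MDSC-NP-Blk (log2 fold change 0.29 ± 0.0662, adjusted p = 0.001). Creld2, an ER protein induced by unfolded protein stress and a carrier of the ERSE, had 968, 924, 893, and 890 normalized counts for MDSC, 725, 754, 753, and 773 for MDSC-NP-Blk, and 923, 840, 910, and 810 for CITED. The MDSC-NP-Blk libraries lay below both other groups. Creld2 fell in MDSC-NP-Blk against MDSC (-0.29 ± 0.0713) and rose in CITED against MDSC-NP-Blk (log2 fold change 0.21 ± 0.072, adjusted p = 0.03), the latter call being lost without MDSC-NP-Blk 1 (adjusted p = 0.062), MDSC-NP-Blk 2 (adjusted p = 0.055), CITED 1 (adjusted p = 0.093), or CITED 3 (adjusted p = 0.086).

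P4hb, which encodes the archetypal protein disulfide isomerase, was the one of the 22 ER members that fell most with the drug load. It had 29102, 27631, 27441, and 26899 normalized counts for MDSC, 28806, 26334, 24088, and 29002 for MDSC-NP-Blk, and 21056, 20491, 21509, and 20349 for CITED. MDSC and MDSC-NP-Blk overlapped (log2 fold change -0.038 ± 0.0491, adjusted p = 0.59), and all CITED libraries lay below both (log2 fold change -0.38 ± 0.0492, adjusted p = 2.7e-07, against MDSC-NP-Blk).

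Hsp90b1 had 19336, 18500, 18420, and 18291 normalized counts for MDSC, 14804, 15130, 15227, and 14147 for MDSC-NP-Blk, and 13895, 13406, 12761, and 12843 for CITED, and the 3 groups did not overlap. It was lower in CITED than in MDSC-NP-Blk (log2 fold change -0.17 ± 0.0444, adjusted p = 0.0054), on top of its fall in MDSC-NP-Blk. Dnajc3 had 2581, 2530, 2576, and 2576 for MDSC, 1397, 1819, 1603, and 1372 for MDSC-NP-Blk, and 1183, 1310, 1350, and 1411 for CITED. It fell further in CITED, with overlap (log2 fold change -0.24 ± 0.0724, adjusted p = 0.013), and this call was lost without MDSC-NP-Blk 2 (adjusted p = 0.14) or CITED 1 (adjusted p = 0.071). The fourth ER member to fall was Herpud1 (log2 fold change -0.21 ± 0.065, adjusted p = 0.018), a call lost without MDSC-NP-Blk 2 (adjusted p = 0.063) or CITED 2 (adjusted p = 0.084).

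Among the cytosolic genes, Hsph1 had the largest change with the drug load, being 1.71-fold higher in CITED (log2 fold change 0.78 ± 0.0859, adjusted p = 8.5e-09) and without overlap. Bag3 rose (log2 fold change 0.29 ± 0.0918, adjusted p = 0.018) without overlap, a call lost without CITED 1 (adjusted p = 0.051) or CITED 4 (adjusted p = 0.08). Hspa1a rose with overlap (log2 fold change 0.40 ± 0.125, adjusted p = 0.018), and this call was lost without MDSC-NP-Blk 4 (adjusted p = 0.071), CITED 3 (adjusted p = 0.1), or CITED 4 (adjusted p = 0.081), and with DESeq2 (adjusted p = 0.13). Hspa8 fell (log2 fold change -0.18 ± 0.0384, adjusted p = 0.00069), as did Hsp90aa1 (log2 fold change -0.15 ± 0.0457, adjusted p = 0.014), whose call was lost without CITED 4 (adjusted p = 0.067).

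The remaining ER members did not pass the test between CITED and MDSC-NP-Blk, with log2 fold changes from -0.18 ± 0.0773 for Eif2ak3 to 0.15 ± 0.0567 for Dnajb11. Dnajb11 passed with DESeq2 (adjusted p = 0.014). Hspa5, Calr, Sdf2l1, and Hyou1, which all fell against MDSC, had 0.056 ± 0.0518, -0.018 ± 0.0511, 0.064 ± 0.0871, and 0.063 ± 0.056, whereas Dnajc3, which fell there as well, was lower again in CITED. A p-value above the threshold does not show that these levels were equal.

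Levels per kilobase of canonical transcript placed the members in a wide range. In MDSC, Hspa8 (16345 normalized counts per kilobase) and Hsp90ab1 (13391) were followed by P4hb (9445), Calr (8501), Hsp90b1 (6585), and Xbp1 (5883). Lowest above the floor were Hsf1 (81.1), Hsph1 (132), Bag3 (174), Atf6 (207), Ern1 (217), and Eif2ak3 (239), a set that holds the 3 sensors and Hsf1 as well as a chaperone and a co-chaperone of the cytosol.

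Other genes of the same compartments were taken from lists drawn up by function. Their counts stand against shares over all genes of 19.9% higher and 18.6% lower in MDSC-NP-Blk, 22.2% each way in CITED against MDSC, and 10.5% higher and 11.4% lower with the drug load, and no list was tested. Of 18 further ER folding genes, 9 fell and 4 rose in MDSC-NP-Blk and 8 fell and 3 rose in CITED against MDSC. Uggt1, which senses misfolded glycoproteins, had a log2 fold change of -0.55 ± 0.0566 in MDSC-NP-Blk and -0.51 ± 0.0567 in CITED, and Txndc5, a disulfide isomerase, fell in MDSC-NP-Blk (-0.71 ± 0.0762) and rose in CITED against MDSC-NP-Blk (0.34 ± 0.0773). Erp29 (0.40 ± 0.0559 and 0.55 ± 0.0559) and Ppib, a proline isomerase (0.27 ± 0.0475 and 0.31 ± 0.0476), rose in both. Ero1a, the oxidase that recharges disulfide isomerases, differed most with the drug load, with log2 fold change -1.12 ± 0.0625, adjusted p = 1e-15 for CITED against MDSC-NP-Blk and -0.83 ± 0.0621 for CITED against MDSC. In MDSC-NP-Blk against MDSC it rose, with overlap (0.29 ± 0.0617).

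Degradation genes leaned the other way. Of 15, 7 rose and 3 fell in MDSC-NP-Blk, 8 rose and 4 fell in CITED against MDSC, and 6 rose and 2 fell with the drug load. Selenok, a selenoprotein of the ER membrane, had a log2 fold change of 0.52 ± 0.0642 in MDSC-NP-Blk and 0.76 ± 0.0642 in CITED. Edem2, which trims mannose from glycoproteins, rose in MDSC-NP-Blk with overlap (0.26 ± 0.0648) and in CITED (0.64 ± 0.0648 against MDSC and 0.37 ± 0.0646 against MDSC-NP-Blk). The list also holds Stt3b, a catalytic subunit of the oligosaccharyltransferase, which attaches glycans and is not itself a degradation enzyme. Stt3b fell in all 3 comparisons (-0.33 ± 0.047, -0.56 ± 0.0473, and -0.23 ± 0.0474 with the drug load).

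For translocation into and export from the ER, 18 genes gave 8 lower and 5 higher in MDSC-NP-Blk, and 9 lower and 5 higher in CITED against MDSC. Sec24d, a cargo adaptor of the COPII coat, fell by 1.04 ± 0.0825 in MDSC-NP-Blk and by 1.52 ± 0.0854 in CITED on the log2 scale, and fell again with the drug load (log2 fold change -0.48 ± 0.0876, adjusted p = 5.7e-05). Spcs3, a subunit of signal peptidase, had -0.42 ± 0.0475 and -0.48 ± 0.0477, whereas Sec61b, a subunit of the translocon, rose (0.44 ± 0.0652 and 0.66 ± 0.0653).

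Of 10 genes listed with the PERK branch, 8 rose and 1 fell in MDSC-NP-Blk, and 7 rose and 2 fell in CITED against MDSC. The risers in both include Eif2a (0.65 ± 0.0656 and 0.29 ± 0.066), which encodes an initiation factor other than the PERK substrate and is neither a target nor an effector of PERK. Ppp1r15a, which directs the phosphatase that reverses PERK signaling, had a log2 fold change of 0.93 ± 0.0805 in MDSC-NP-Blk and 1.18 ± 0.0804 in CITED. Ddit3, which encodes the transcription factor CHOP, rose in both (0.77 ± 0.122 and 0.93 ± 0.122). With the drug load it did not pass the test (0.16 ± 0.119, adjusted p = 0.37). Atf4, the transcription factor of this branch, fell in both (-0.33 ± 0.0534 and -0.15 ± 0.0533). Ddit4, an inhibitor of mTORC1 signaling, rose in MDSC-NP-Blk (0.66 ± 0.0918) and fell with the drug load (log2 fold change -0.81 ± 0.0928, adjusted p = 1.8e-08). Several of these genes also answer to stresses other than unfolded protein.

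Partners of cytosolic Hsp70 and Hsp90 were split. Of 25, 8 rose and 6 fell in MDSC-NP-Blk, and 10 rose and 8 fell in CITED against MDSC. Stip1, which bridges Hsp70 and Hsp90, had -0.48 ± 0.054 and -0.50 ± 0.0542 and Fkbp4, an Hsp90-binding immunophilin, had -0.49 ± 0.0646 and -0.57 ± 0.065, the direction of Hsp90aa1. Dnajb6 (0.55 ± 0.0534 and 0.56 ± 0.0535), a J-domain protein, and Stub1 (0.55 ± 0.0627 and 0.65 ± 0.0628), a ubiquitin ligase that binds both chaperones, rose. With the drug load 4 rose and 3 fell, among them Hspbp1, a nucleotide exchange factor of Hsp70 (0.53 ± 0.107), and Fkbp5 (-0.33 ± 0.0544).

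Of the 8 subunits of the cytosolic chaperonin CCT, which folds actin and tubulin, 2 rose and 2 fell in MDSC-NP-Blk, shares near those of all genes, and 2 rose and 3 fell in CITED against MDSC. Cct4 had 0.43 ± 0.049 and 0.41 ± 0.0491, and Cct3 had -0.48 ± 0.054 and -0.23 ± 0.0538. Of 9 further mitochondrial folding and protease genes, 4 fell and 0 rose in MDSC-NP-Blk, and 2 fell and 1 rose in CITED. Trap1, the mitochondrial Hsp90, had -0.43 ± 0.0751 and -0.41 ± 0.0754, and Grpel1, a nucleotide exchange factor of mitochondrial Hsp70, rose in CITED against MDSC-NP-Blk (0.31 ± 0.0692). With the drug load, 2 rose and 2 fell among the further ER folding genes, 1 and 4 in translocation and export, 2 and 2 in the PERK branch, 1 and 1 in CCT, and 3 and 0 among these mitochondrial genes.

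**Figure D5:**
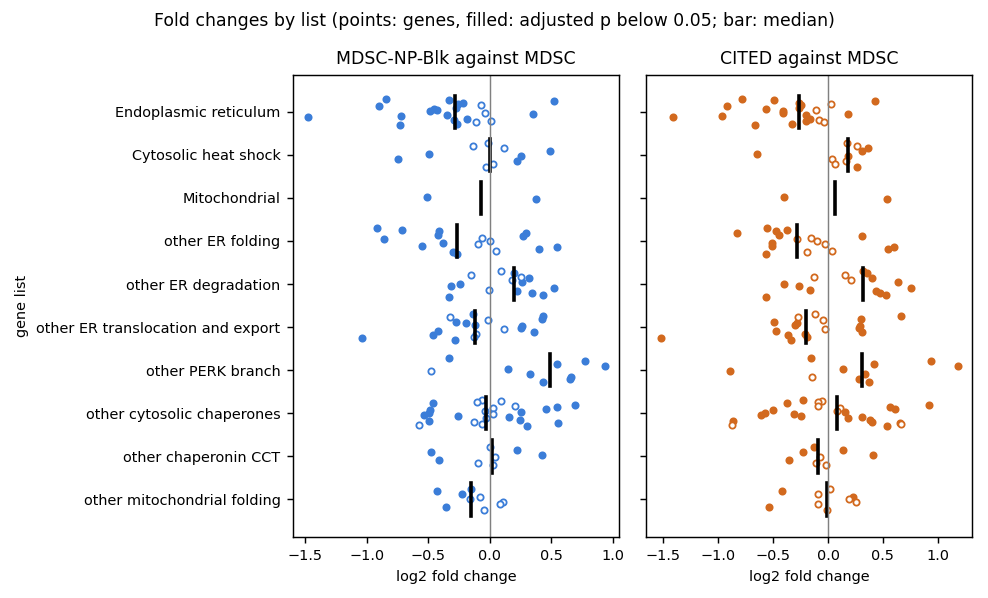
Log2 fold changes against MDSC (x axes) of the members and of the other folding genes, by list, for MDSC-NP-Blk (left) and CITED (right). Each point is a gene above the floor, filled where the adjusted p was below 0.05, and the black bar is the median of the list. Medians lie below 0 for ER chaperones and above 0 for the PERK branch and ER degradation in both panels.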

How the data were processed

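Poly(A)-enriched RNA of 12 libraries was analyzed. The authors ran Salmon 1.4.0 on paired-end reads against GENCODE transcripts of GRCm39, summed transcripts per gene in R 4.3.2 with tximport, and deposited whole-number counts per gene symbol, neither normalized nor filtered. The GENCODE release is not given in the sources used here. Groups and replicate numbers came from sample titles.

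Counts were normalized by TMM and tested with edgeR 4.0.16 in R 4.3.3 (glmQLFit and glmQLFTest, group as the only term, all 12 libraries) over the 17676 symbols with at least 2 counts in total. P-values were adjusted by Benjamini-Hochberg over all of them, and the step was tested on simulated data. SEs were derived from the F statistic, as the size of the log2 fold change over the root of F. The biological coefficient of variation was 9.03%. Depth limits mainly Hspb1. Counts of called members stand in for a test of a list.

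The members and lists were chosen with earlier results of these data known. Values in every library are given for Xbp1, Atf6, Ern1, Eif2ak3, Hsf1, and, per class and comparison, the 3 members with the lowest p in each direction among those called. From other lists, the 3 genes with the lowest p in each direction could be named, and the text names part of them.

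Positions, transcript lengths, and promoters come from GENCODE M39 on GRCm39. Shared sequence is the percent of 31-base words of a gene's transcript that also occur in transcripts of other genes. The length correction removes a loess curve (span 0.5) of each library's relative expression on transcript length. DESeq2 1.42.0, a replicate block, fits on 8 libraries alone or without each library, and further filters and normalizations served as alternatives. Figures were made in matplotlib 3.10.9 with Python 3.11.15. The values of 1 gene that the naming rule takes are not reported here.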

Additional observations from a re-analysis of the deposited data

Results flagged for a closer look

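A library stood apart from the other 3 of its group by Dixon's 95% criterion in 6 of 102 sets of 1 member and 1 group. Chance gives about 1 in 20 such sets. The normalized count of Eif2ak3 was 972 in MDSC-NP-Blk 1, against 1052 to 1068 in the other libraries of that group. Dnajb11 had 1650 in MDSC-NP-Blk 4, against 1833 to 1865. Dnajc3 had 2530 in MDSC 2, against 2576 to 2581, a gap that is small beside its change between groups. Edem1 had 8200 in CITED 4, against 8976 to 9135. Hyou1 had 2893 in CITED 3, against 3074 to 3088. Hsph1 had 1005 in CITED 2, against 770 to 791, and its log2 fold change in CITED against MDSC-NP-Blk was 0.68 without that library.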

How the results depend on the processing

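Of 25 members called in each comparison with MDSC, 25 kept direction and call in MDSC-NP-Blk and 24 in CITED with DESeq2, and 21 and 20 with library size alone. Of the 12 called between CITED and MDSC-NP-Blk, 11 did so with DESeq2 and 12 with library size alone. Asking also for a log2 fold change of 1 or more in size left 838 genes for MDSC-NP-Blk and 1765 for CITED against MDSC, and 469 between CITED and MDSC-NP-Blk, with 1 ER member lower in each of the first 2 and 0 members in every other count. Library size alone turned the sign against MDSC in MDSC-NP-Blk of Herpud1 (-0.25), Hsp90ab1 (-0.012), Dnajb1 (-0.040), and Dnaja1 (-0.24), and in CITED of Hsp90ab1 (-0.095), Dnaja1 (-0.21), Ern1 (-0.24), Dnajb9 (-0.093), Hsph1 (-0.24), and Bag3 (-0.014). In MDSC-NP-Blk it gave 1 ER and 1 cytosolic member higher and 6 cytosolic members lower, and in CITED against MDSC 1 ER and 0 cytosolic higher and 4 cytosolic lower. The length correction turned Atf6 (0.028, and 0.027 with the replicate block) and Edem1 (0.17 with and without the block) positive in CITED against MDSC, where 7 cytosolic members were then higher. Deviations of same-numbered libraries correlated by -0.06 to 0.14 over 10555 genes. Those closest to their own number were 2 of 8 in CITED against MDSC and 0 in MDSC-NP-Blk against MDSC. In CITED against MDSC-NP-Blk they were 4, with a mean correlation of 0.051 for equal numbers and -0.017 for others. Whether the numbers pair libraries is not stated, and these values do not settle it. With the replicate block, Hspa1a passed as higher in CITED against MDSC (0.28, adjusted p = 0.00014). Hspa1b did so in CITED against MDSC-NP-Blk (0.27, adjusted p = 0.00021). The replicate block gave 1 ER member higher in CITED against MDSC, as did RLE normalization and no filter. The replicate block with the length correction gave 9 cytosolic members higher in CITED against MDSC, and 5 ER and 5 cytosolic higher in CITED against MDSC-NP-Blk. With each library left out, ER members higher in CITED against MDSC were 1 to 2 and cytosolic ones 2 to 6. In CITED against MDSC-NP-Blk, ER members lower were 2 to 5 (2 without MDSC-NP-Blk 2), cytosolic members higher 1 to 4 and lower 1 to 2 (1 each without CITED 4), and the ER minus cytosolic median stood between -0.14 and -0.10. The cause of these shifts was not tested.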
